A study of Mus musculus with 91 samples.

Results

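The comparison described here is that of untreated mouse liver after 56 days of drinking water with liver after 28 days. It rests on 10 of the 91 arrays of the series, chosen by their labels: 5 arrays of H2O_28d and 5 of H2O_56d. Each array held total RNA from the liver of an adult male mouse with C57BL as its labelled strain and C57BL/6J as its stated background. All 10 mice had water as their labelled treatment, at a labelled dose of 0 % (w/v), and differed in the labels only in the duration, 28 or 56 days. They were the controls of mice given phenobarbital at 0.05 % (w/v) in drinking water for the same durations, PB_28d and PB_56d, with 5 arrays each. Mice were killed by rising carbon dioxide, per the labels' protocols. Mice were assigned to groups of 5 at random, so that each array was taken as a separate mouse. There was 1 water group per duration. The duration, the age of the mice and whatever else set the groups apart, such as the day of necropsy, therefore cannot be told apart. The values are on a log2 scale and refer to probe sets, each a set of short probes for 1 transcript. They cover 34945 probe sets with a single gene symbol, out of 45037, which stand for 18193 genes. Gene counts below take 1 probe set per gene, the brightest on average.

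The clearest difference between the durations lay in the heat shock genes, which are therefore introduced here. Heat shock proteins are chaperones that keep other proteins folded, and many are made in larger amounts when unfolded proteins build up. Heat shock factor then binds heat shock elements, arrays of the letters GAA and their complement TTC in alternating orientation, in front of these genes. In liver the inducible members are known to respond to fever and oxidative stress. The abundance of a transcript in a piece of liver reflects both the number of cells of a type and the RNA per cell, which cannot be told apart in these data.

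The promoters of the 3 called genes with the largest falls are printed because these genes moved together and letters of a heat shock element can be looked for in them. They are the RefSeq windows of GRCm38.p6, running from 250 bases before to 50 bases after the start of the gene on its own strand. Hspa1a lies at chr17:34972107-34972406, Hspa1b at chr17:34959189-34959488 and Hsph1 at chr5:149636287-149636586, all on the minus strand. Capitals mark matches to GAANNTTC or TTCNNGAA, the pairings of neighbouring GAA units, each of which reads the same on both strands.
Hspa1a: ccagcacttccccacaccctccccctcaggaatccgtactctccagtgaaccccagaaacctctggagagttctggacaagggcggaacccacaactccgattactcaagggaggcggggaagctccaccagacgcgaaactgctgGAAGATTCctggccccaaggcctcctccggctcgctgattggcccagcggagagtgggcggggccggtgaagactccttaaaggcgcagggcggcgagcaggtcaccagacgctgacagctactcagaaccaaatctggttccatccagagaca
Hspa1b: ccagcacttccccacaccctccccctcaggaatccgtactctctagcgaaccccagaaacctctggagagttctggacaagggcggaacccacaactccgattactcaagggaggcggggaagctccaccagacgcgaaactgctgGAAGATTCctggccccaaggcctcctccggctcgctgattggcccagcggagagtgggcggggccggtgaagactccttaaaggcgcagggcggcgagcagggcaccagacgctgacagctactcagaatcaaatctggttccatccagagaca
Hsph1: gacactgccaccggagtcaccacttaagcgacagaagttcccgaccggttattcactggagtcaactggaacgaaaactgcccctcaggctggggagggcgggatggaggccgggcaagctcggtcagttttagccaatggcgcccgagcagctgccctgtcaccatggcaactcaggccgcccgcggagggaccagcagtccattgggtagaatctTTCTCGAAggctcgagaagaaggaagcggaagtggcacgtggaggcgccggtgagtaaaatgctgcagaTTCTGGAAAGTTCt
The Hspa1a and Hspa1b windows carried the same base at 296 of 300 positions, and each held 1 match to GAANNTTC, which began at base 147 from the 5′ end. The Hsph1 window held 2 matches to TTCNNGAA and 1 to GAANNTTC, of which the last at the 3′ end overlap. Of all 32817 promoter windows of this length, 8.51% held TTCNNGAA, 7.86% held GAANNTTC and 15.1% held either. The windows of Dnajb1 held neither, and that of Rwdd3 held 1 GAANNTTC. A match describes these letters only.

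Few probe sets differed. With limma, 9 of the 34945 probe sets (0.0258%) passed an adjusted p of 0.05, called here, and 6 of these differed at least 2-fold (0.0172%). Of the 9, 8 were lower at 56 days (0.0229% of those tested) and 1 was higher (0.00286%). Counted over genes, 5 of 18193 were called lower (0.0275%) and 1 higher (0.0055%). At an unadjusted p under 0.05 there were 511 genes higher (2.81%) and 524 lower (2.88%), 5.69% in all. The median log2 difference over all genes was 0.0053. All 5 genes called lower are heat shock genes: Hspa1b, Hspa1a, Hsph1, Dnajb1 and Hspa8. These calls used the spread within all 19 groups of the series. With the 10 water arrays alone no probe set was called by limma, while 2650 reached an unadjusted p under 0.05, and the adjusted p of the called probe sets then lay between 0.131 and 0.466.

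Hspa1b, an inducible form of the chaperone HSP70, had the smallest adjusted p. Its values at 28 days were 11.32, 11.22, 10.90, 12.24 and 13.18 in replicates 1 to 5, and at 56 days 9.50, 10.44, 9.59, 9.57 and 8.54. The groups did not overlap. The mean fell from 11.77 ± 0.93 to 9.53 ± 0.67 (SD, n = 5 each), a log2 difference of -2.25 ± 0.34 (SE), or 4.74-fold, with an adjusted p of 0.000129 in limma and an exact two-sided permutation p of 0.00794, the smallest that 5 against 5 mice can give. The SE uses the spread pooled over 19 groups, among which H2O_28d had the highest SD, so the SE and the limma p overstate the precision. Both further Hspa1b probe sets were called as well, at -2.57 (adjusted p = 0.001, limma) and -2.35 (adjusted p = 0.000867, limma). Hspa1a is the neighbouring HSP70 gene with a nearly identical transcript, so that signal may be shared between probe sets of this pair and either single member is uncertain.

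The Hspa1a probe set lay near the low end of the scale in most mice. At 28 days it read 5.10, 4.70, 4.71, 6.94 and 8.50, and at 56 days 4.27, 4.63, 4.09, 4.27 and 4.08. The groups did not overlap, but the lowest value at 28 days and the highest at 56 days were close, and replicates 4 and 5 of 28 days stood well above the other 3. The log2 difference was -1.72 ± 0.29 (SE, adjusted p = 0.000867, limma). This SE uses the spread pooled over 19 groups. The SD of Hspa1a was 1.68 in H2O_28d, 0.22 in H2O_56d and at most 0.65 in any other group. The pooled spread is thus smaller than that of the 28-day mice, and the SE and p overstate the precision.

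Hsph1, an HSP110 co-chaperone that frees nucleotide from HSP70, fell in both of its probe sets. The brighter probe set read 9.60, 9.60, 9.35, 10.39 and 10.72 at 28 days and 8.70, 8.79, 8.71, 8.45 and 8.01 at 56 days. No mouse of 56 days reached the lowest mouse of 28 days. The log2 difference was -1.40 ± 0.23 (SE, adjusted p = 0.000867, limma), and that of the dimmer probe set was -1.45 with an adjusted p of 0.0456 in limma. The SD of the brighter probe set was 0.59 in H2O_28d, the highest of the 19 groups, and 0.32 in H2O_56d. The pooled SE is thus small for the 28-day mice here too.

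Dnajb1, an HSP40 co-chaperone that delivers clients to HSP70, read 9.54, 9.26, 8.90, 9.83 and 10.90 at 28 days. At 56 days its values were 8.86, 8.96, 8.93, 8.86 and 8.75, a far tighter group that overlapped the lowest mouse of 28 days. The log2 difference was -0.82 ± 0.17 (SE, adjusted p = 0.0325, limma), with an exact permutation p of 0.0238. The pooled SE is again small for the 28-day mice. The SD of Dnajb1 was 0.76 in H2O_28d, 0.08 in H2O_56d and at most 0.36 in any other group. A dimmer Dnajb1 probe set lay at -0.50 with no overlap of the groups and was not called (adjusted p = 0.255, limma). Hspa8, the abundant constitutive HSP70 of the cytosol, read between 12.96 and 13.17 at 28 days and between 12.26 and 12.84 at 56 days. Its groups did not overlap, and the fall was small, -0.53 ± 0.10 on the log2 scale (SE, adjusted p = 0.0066, limma), or 1.45-fold. Of the other 3 Hspa8 probe sets, 2 lay at -0.55 and -0.50 without being called, and 1 dimmer probe set lay at -0.06.

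**Figure D1:**
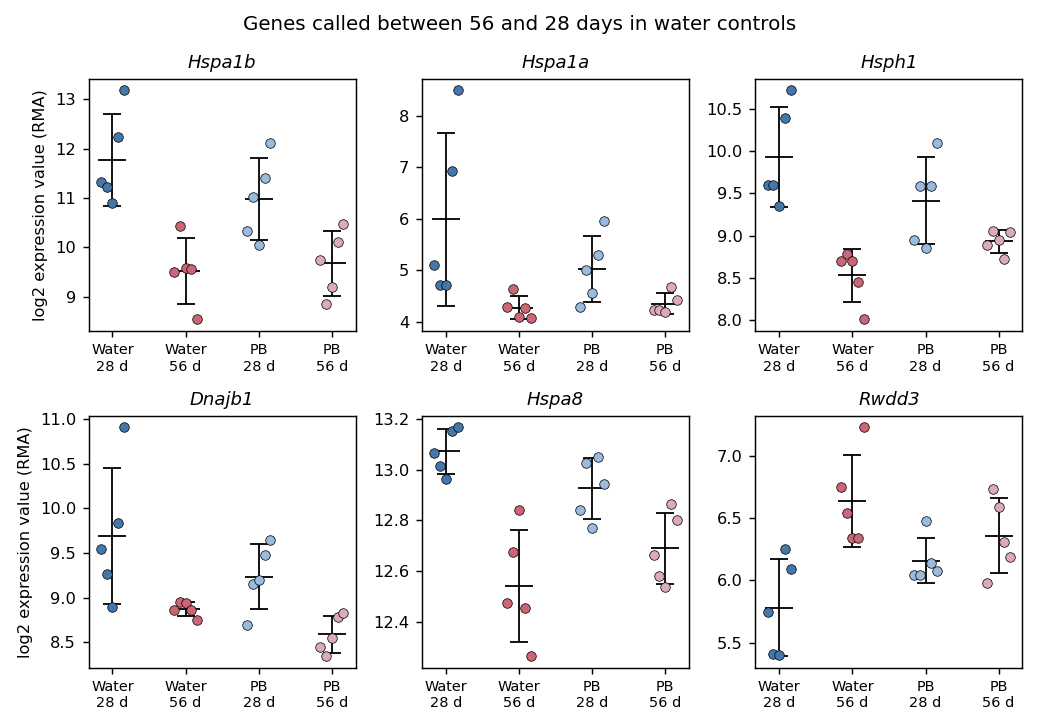
Log2 expression values of the 6 genes called between the durations, with 1 point per mouse and bars for the mean ± SD (n = 5), in water (H2O_28d, H2O_56d) and phenobarbital (PB_28d, PB_56d) groups. Each panel has its own vertical scale, which does not start at 0. In water, Hspa1b, Hspa1a, Hsph1 and Hspa8 at 56 days lie below every mouse of 28 days, Dnajb1 overlaps, and Rwdd3 lies above.

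Of the 15 genes of the heat shock and protein folding list, 14 were measured. Among them 5 were called lower (0.0275% of all genes were) and 13 were lower (48.1% of all genes). At an unadjusted p under 0.05, 11 were lower (2.88% of all genes). The groups did not overlap for 8 of the 14, all lower, while 1.08% of all genes showed this. The median of the list was -0.65, against 0.0053 over all genes. Among the members that were not called, Dnaja1, another HSP40, read 11.71 to 11.95 at 56 days against 12.23 to 12.66 at 28 days, a difference of -0.54 ± 0.12 (SE, adjusted p = 0.0722, limma). Hsp90aa1, the inducible HSP90, lay at -0.66 and its co-chaperone Ahsa1 at -0.34. The small heat shock proteins Hspb1 and Hspb8 lay at -0.68 and -0.32, the nucleotide exchange factor Bag3 at -0.67 and the HSP90 partner Chordc1 at -0.63. The mitochondrial chaperonins Hspd1 and Hspe1 lay at 0.09 and -0.03. The lower values were thus found among cytosolic members, with both mitochondrial ones near 0.

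The level of the list differed among the mice of 28 days. The mean over its 14 genes was 10.54, 10.51, 10.44, 10.99 and 11.34 in replicates 1 to 5 of 28 days, and 9.99, 10.23, 10.09, 10.01 and 9.76 at 56 days. The groups did not overlap, and replicates 4 and 5 of 28 days were the highest. The same pair of mice was high in the immediate early genes, transcription factors that respond to a stimulus within minutes. Egr1 read 12.58 and 12.76 in them, against 7.11 to 7.85 in the other 3 mice of 28 days and 7.16 to 9.03 at 56 days. Fos read 8.08 and 8.80 in them, against 5.11 to 6.17 and 5.43 to 6.12. The mean over the 20 immediate early genes was 7.18 and 7.50 in this pair, 6.37 to 6.46 in the other 3 and 6.45 to 6.78 at 56 days. In the 6 other vehicle groups of C57BL mice at 28 days the mean of Egr1 lay between 10.22 and 11.67 and that of Fos between 6.14 and 7.25. For Egr1 the pair thus lay above these means and the other 8 water mice below them, and H2O_56d was called lower than 5 of the 6 groups. The clock gene Arntl read 7.40 and 6.89 in the pair, 5.98 to 6.32 in the other 3 mice of 28 days and 6.19 to 6.97 at 56 days, so that only the first of the pair lay above all others. The clock output Dbp read 9.96 and 10.31 in the pair, 11.41 to 11.80 in the other 3 and 10.73 to 11.69 at 56 days, below all others in both mice. The part of these differences among mice in the heat shock result was not tested.

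Leaving out either mouse of the pair alone kept Hspa1b and Hsph1 called, and over the 10 omissions of 1 mouse the log2 difference of Hspa1b ran from -2.47 to -1.89. Leaving out both, a choice made after their values were seen and one that must shrink the difference, gave -1.62 for Hspa1b (adjusted p = 0.0663, limma), -0.98 for Hsph1 (adjusted p = 0.169, limma) and -0.57 for Hspa1a (adjusted p = 0.472, limma). Hspa1a, of these genes the most dependent on the pair, lay at -1.09 without replicate 5 of 28 days alone and was still called (adjusted p = 0.0433, limma). Dnajb1 lay at -0.51 without that mouse and at -0.36 without both mice of the pair. Without both mice of the pair, 14 probe sets were called, with none of the heat shock list among them. The calls of the smaller falls were also lost without replicate 5 of 56 days. Without it Hspa1b was still called at -2.0002 (adjusted p = 0.00369, limma), Hspa1a at -1.67 (adjusted p = 0.00869, limma) and Hsph1 at -1.27 (adjusted p = 0.0111, limma). Hspa8 at -0.46 (adjusted p = 0.106, limma) and Dnajb1 at -0.79 (adjusted p = 0.124, limma) were not called. The Dnajb1 difference hardly moved, from -0.82 with all mice. Hspa8 was called in the other 9 omissions of 1 mouse, and Dnajb1 in 3 of the 10.

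The mice given phenobarbital gave a second comparison of 56 with 28 days, with no array in common with the first. It too had 1 group per duration, so duration, age and day of necropsy cannot be told apart in it either. The labels do not say whether water and phenobarbital mice of a duration shared a day of necropsy. The titles of the PB_28d arrays carry a "(2)" that the labels do not explain. Across the phenobarbital groups 1 probe set was called (0.00286%). All 9 probe sets called in water, which stand for 6 genes, had the same sign in phenobarbital mice, and none of them was called there. Over all genes the sign was the same for 48.3%, and the correlation of the log2 differences across 18193 genes, which are not independent replicates, was 0.055. Hspa1b read 10.34, 11.02, 10.04, 11.41 and 12.12 in PB_28d and 9.74, 8.85, 9.20, 10.12 and 10.48 in PB_56d. Replicates 4 and 5 were the highest in each of these groups, as they were in H2O_28d but not in H2O_56d. Whether this order is shared was not tested. The phenobarbital groups overlapped, and the log2 difference was -1.31, with a 95% interval from -1.99 to -0.64. Hspa1a lay at -0.67, Dnajb1 at -0.64, Hsph1 at -0.48 and Hspa8 at -0.24. In the heat shock list 12 of 14 genes were lower at 56 days of phenobarbital (50.2% of all genes), 9 of them at an unadjusted p under 0.05 (1.8% of all genes), and the median was -0.35. Hspb1 and Hsp90aa1 were the 2 members above 0 there, at 0.36 and 0.14. The sign for Hsp90aa1 depended on the probe set. In phenobarbital mice 2 further probe sets of it lay at -0.03 and -0.04, and 2 dimmer ones at 0.06 and 0.22.

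The water difference minus the phenobarbital difference was tested directly. No probe set was called in limma (0%), and 1599 reached an unadjusted p under 0.05 (4.58%). For Hspa1b this difference was -0.93, with a 95% interval from -1.89 to 0.02. For Hsph1 it was -0.92, with an interval from -1.58 to -0.26 (adjusted p = 0.885, limma), and for Hspa1a -1.05, from -1.87 to -0.23 (adjusted p = 0.998, limma).

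**Figure D2:**
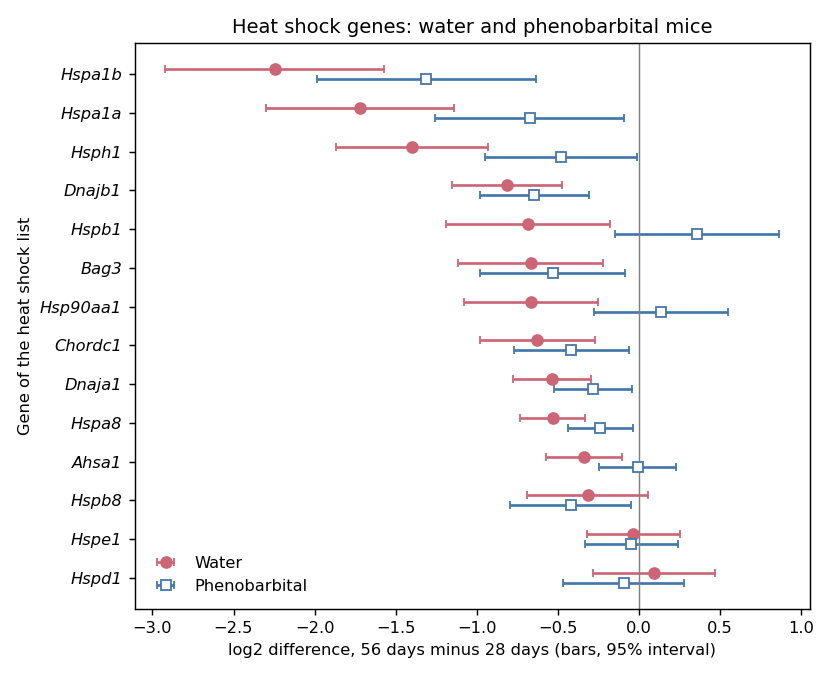
Log2 difference of 56 days minus 28 days for the 14 measured genes of the heat shock list, in water mice (filled circles) and phenobarbital mice (open squares). Bars are 95% intervals from limma. Hspa1b lies at -2.25 in water and -1.31 in phenobarbital, and the mitochondrial Hspe1 and Hspd1 lie near 0 in both.

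The place of the water groups in the whole series differed by gene. H2O_28d had the highest mean of the 19 groups for Hspa1b, Hspa1a and Dnajb1, but ranked 9 from the lowest for Hspa8. For Hspa1b the next group was pioglitazone at 11.72 ± 0.65 (SD), which did not differ from 11.77 ± 0.93 beyond the spread. The 6 other vehicle groups of C57BL mice at 28 days had Hspa1b means from 9.92 to 10.77. H2O_56d had the lowest mean of the 19 groups for Hsph1 and Hspa8, and its Hspa1b mean of 9.53 was the second lowest, above cyproterone acetate at 9.14 ± 0.29 (SD). For Dnajb1 it ranked 6 from the lowest. For Hspa1a its mean of 4.27 ± 0.22 (SD), near the low end of the scale, was also the lowest of the 19. That mean did not differ beyond the spread from the lowest mean of the other vehicle groups, also 4.27. In the dimmer probe sets H2O_56d ranked less low, at 7 of 19 counted from the lowest for both of Hspa1b and 6 of 19 for that of Hsph1. Against the corn oil group of 28 days, Hsph1 was called lower in H2O_56d, at -1.11 on the log2 scale (adjusted p = 0.018, limma). Hspa1b lay at -1.08 in H2O_56d (adjusted p = 0.277, limma) and at 1.16 in H2O_28d (adjusted p = 0.248, limma) against that group, and neither of these was called.

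**Figure D3:**
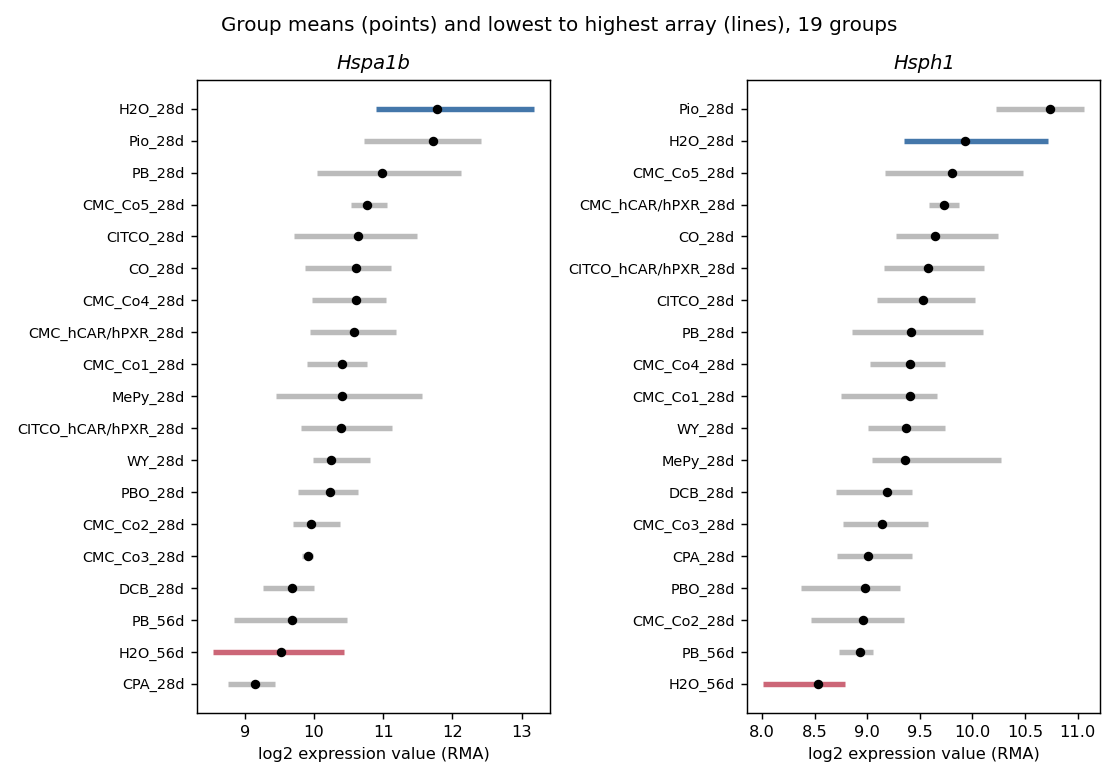
Means of Hspa1b and Hsph1 (points) with the lowest and highest array (lines) in the 19 groups, ordered by the mean, on the log2 scale. H2O_28d (blue) is at the upper end, first for Hspa1b, and H2O_56d (red) at the lower end, lowest for Hsph1 at 8.53.

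The only gene called higher was Rwdd3, which encodes an RWD-domain protein known to promote the attachment of SUMO to its targets. It read 5.75, 5.41, 5.40, 6.25 and 6.09 at 28 days and 6.75, 6.54, 6.34, 6.34 and 7.23 at 56 days. The groups did not overlap, by a narrow margin. The log2 difference was 0.86 ± 0.17 (SE, adjusted p = 0.0233, limma), or 1.81-fold, and 0.71 without replicate 5 of 56 days (adjusted p = 0.239, limma). The other 2 Rwdd3 probe sets, both dimmer, lay at 0.39 and -0.05 and were not called.

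The genes with the next smallest p-values were not called. In the upward direction these were Abcb1a, a drug efflux pump, Vegfc, a growth factor for lymphatic vessels, Slco1a4, an organic anion uptake transporter, the alanine aminotransferase gene Gpt, Jade2 and Tent2. Abcb1a read 4.57 to 5.79 at 28 days and 6.23 to 8.64 at 56 days, a difference of 1.45 ± 0.33 (SE, adjusted p = 0.0722, limma), with the highest value in replicate 5. Vegfc read 6.25 to 6.75 at 28 days and 7.99, 6.71, 7.74, 7.69 and 6.79 at 56 days, a difference of 0.95, and without replicate 5 it was called at 1.10 (adjusted p = 0.039, limma). In the downward direction they were Dnaja1, the phosphoglycolate phosphatase gene Pgp at -0.48, the arginine methyltransferase gene Prmt3 at -0.45, the activin subunit gene Inhbc at -0.85, Tsc22d3 at -1.16 and the linker histone gene H1f2 at -0.75. Tsc22d3, a glucocorticoid-induced gene also known as GILZ, read 10.67 to 11.45 at 28 days. At 56 days it read 9.27, 9.80, 9.47, 9.48 and 11.47, so that 4 mice lay below every mouse of 28 days and replicate 5 above. Without replicate 5 its difference was -1.55 (adjusted p = 0.00339, limma), and in phenobarbital mice it was -0.83.

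The unfolded protein response of the endoplasmic reticulum, the counterpart of the heat shock response for secreted proteins, also tended lower without a call. Of its 20 genes none was called, 12 were lower at an unadjusted p under 0.05 (2.88% of all genes), and the median was -0.35. The mean over the list was 10.82 and 10.91 in replicates 4 and 5 of 28 days and 10.51 to 10.69 in the other 3. At 56 days it was 10.15 in replicate 5 and 10.37 to 10.55 in the other 4. Without replicate 5 of 56 days 9 genes were lower at an unadjusted p under 0.05. The part of these mice in the result was not tested. Creld2 lay at -1.0049, and at -0.54 without replicates 4 and 5 of 28 days, the secreted survival factor Manf at -0.69, the chaperone partner Sdf2l1 at -0.65 and the HSP40 Dnajb9 at -0.56. Manf read 11.01 to 11.74 at 28 days and 10.17 to 10.99 at 56 days, without overlap. In phenobarbital mice the median was near 0, with 10 of the 20 lower, so the counts of this list were not alike in the 2 comparisons, while no member passed the test of that difference.

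Amino acid and urea cycle genes lay slightly higher. Of 19 measured, 18 were higher in water (51.9% of all genes), 7 at an unadjusted p under 0.05 (2.81% of all genes), with none called and a median of 0.17. The mean over the list was 13.09 in replicate 5 of 56 days and 12.51 to 12.72 in the other 4, and 5 genes reached an unadjusted p under 0.05 without that mouse. At 28 days replicates 4 and 5, at 12.65 and 12.64, lay within the range of 56 days, and the other 3 mice at 12.17 to 12.45. Hal, which opens the breakdown of histidine, lay at 0.71, the aspartate aminotransferase gene Got1 at 0.61, the glyoxylate enzyme gene Agxt at 0.58, the arginine transporter gene Slc7a2 at 0.57 and Gpt at 0.57. In phenobarbital mice 18 of the 19 were lower (50.2% of all genes), 7 at an unadjusted p under 0.05 (1.8% of all genes), with a median of -0.17. Gpt had an interaction of 0.90 between the comparisons, which was not called (adjusted p = 0.196, limma).

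Targets of the xenobiotic receptors were included because these mice are the controls for phenobarbital, which activates CAR. Of 26 measured CAR targets none was called and 9 were higher at an unadjusted p under 0.05 (2.81% of all genes), but 1 without replicate 5 of 56 days. Cyp2b10, the classical CAR target, read 5.45 to 5.87 at 28 days and 6.05, 7.12, 6.12, 5.89 and 7.72 at 56 days, a difference of 0.94 (adjusted p = 0.914, limma). Gsta2 lay at 1.01. Of 10 PXR targets 4 were higher at an unadjusted p under 0.05, 2 without replicate 5, among them Slco1a4 at 1.48 (adjusted p = 0.0958, limma), and Cyp3a11 lay at 0.09. The receptors Nr1i3 (CAR) and Nr1i2 (PXR) lay at 0.12 and 0.14, and at -0.19 and -0.09 without replicate 5.

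Of the 42 gene lists described, the heat shock list was the only one with a called member when all mice were used, and 29 lists had a median within 0.1 of 0. Without replicate 5 of 56 days the clock and glucocorticoid lists each had 1 as well, Tsc22d3, which is on both. The clock list held 21 measured genes with none called, and Noct at -0.79, Per2 at -0.63 and Per1 at -0.56 lay lower while Arntl at -0.00262, Dbp at 0.27 and Nr1d1 at 0.22 lay nearer 0. Without replicate 5 of 56 days Noct lay at -1.25, Per1 at -0.98 and Per2 at -0.78, and 5 clock genes in place of 2 were lower at an unadjusted p under 0.05. Of 19 sterol synthesis genes 4 were lower at an unadjusted p under 0.05 (2.88% of all genes), and none without replicate 5. Sqle lay at -0.68, Mvd at -0.60, Cyp51 at -0.48 and Idi1 at -0.46. The lists for hepatocytes, macrophages, lymphocytes, neutrophils, red cells, endothelium, stellate cells, bile ducts, fat, muscle and pancreas had no called member. Of 19 lymphocyte markers 16 were higher (51.9% of all genes), 1 at an unadjusted p under 0.05, with a median of 0.17. Their mean level was 5.28 to 5.58 at 28 days and 5.52 to 5.82 at 56 days. Of 18 macrophage markers 15 were lower (48.1% of all genes), none at an unadjusted p under 0.05, with a median of -0.12 and mean levels of 7.91 to 8.32 and 7.82 to 8.002. The part of such cells in the other lists was not tested. The label of liver was borne out by Alb, which read 15.13 to 15.22 in all 10 mice. Of the 24 genes fixed by name none was called and 5 reached an unadjusted p under 0.05 (5.69% of all genes). Among them Cyp1a2 lay at -0.17, Cyp4a14 at 0.53, Cyp7a1 at 0.03, Scd1 at 0.01, Pck1 at -0.20, Igf1 at -0.17, Mki67 at -0.09, Afp at 0.32, Meg3 at 0.06, Lcn2 at -0.26, Saa2 at -0.93 and Mt2 at 0.53. Several of these depended on 1 mouse. Without replicate 5 of 56 days Mt2 lay at 0.10, Cyp4a14 at 0.13, Igf1 at -0.077 and Pck1 at -0.32, without replicate 2 of 56 days Cyp1a2 lay at -0.0018, and without replicate 3 of 28 days Saa2 lay at -0.43.

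**Figure D4:**
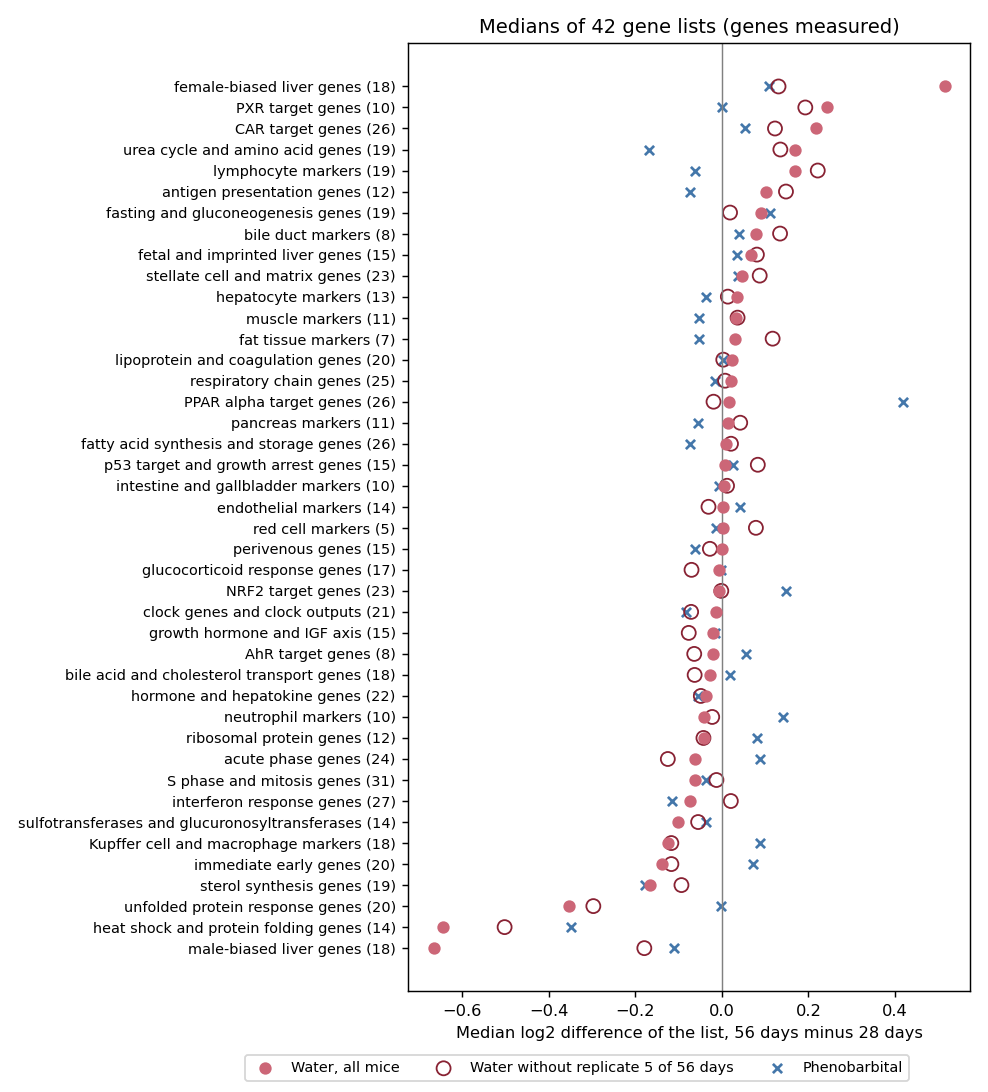
Median log2 difference of 56 days minus 28 days for each of 42 gene lists, with the number of genes measured in brackets. Filled circles are water mice, open circles water mice without replicate 5 of 56 days, and crosses phenobarbital mice. The heat shock list lies at -0.65 and -0.50 in the 2 water settings and at -0.35 in phenobarbital, while the male-biased list moves from -0.67 to -0.18 when replicate 5 is left out.

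Replicate 5 of 56 days stood apart from the other 9 water mice. On the first principal component, which held 31.0% of the variance, it lay at 55.7 against -28.0 to 18.8. There 39 genes lay at least 2-fold above and 32 at least 2-fold below all other 9 arrays, while no other array had more than 9 above and 2 below. Of these 71 genes, 19 were on the lists of male-biased or female-biased liver genes, and of the 16 with the widest gaps 9 were. These lists hold 36 of the 18193 genes measured. The genes given here were chosen after these values were seen. Liver sex differences follow the pulsed or steady release of growth hormone, and steroid and drug enzymes are the best known among them. Cyp2b9, a female-biased cytochrome, read 11.33 in replicate 5 and 3.44 to 4.00 in the other 9. Cyp2b13 read 11.67 against 4.33 to 5.26 and the sulfotransferase gene Sult3a1 8.87 against 3.27 to 3.67. The transporter gene Slc22a26 read 8.83 against 4.99 to 5.64. In the other direction, the male-biased steroid enzyme gene Hsd3b5 read 5.10 against 8.74 to 12.70. Cyp4a12a read 6.02 against 11.48 to 12.18, the fatty acid elongase gene Elovl3 6.38 against 10.46 to 12.14, and the uptake transporter gene Slco1a1 6.03 against 10.59 to 11.96. Some treated groups of the series also had high Cyp2b9, at 8.67 to 9.78 in PB_56d and 9.14 to 10.44 in the Wy-14643 group. The lowest Hsd3b5 value was 5.83 in PB_56d and 4.41 in the Wy-14643 group. Of 18 measured male-biased genes 15 lay below all other 9 in replicate 5 (21.0% of all genes did), and of 18 female-biased genes 12 lay above all of them (14.4% of all genes did).

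The Y-linked genes of replicate 5 were within the range of all arrays of the series and at or slightly above that of the other 9 mice, with Eif2s3y at 10.01 against 9.30 to 9.90, Kdm5d at 7.35 against 6.997 to 7.37 and Uty at 7.42 against 6.94 to 7.22. Xist, the transcript that silences an X chromosome in females, read 4.11 against 4.18 to 4.65. In the comparison of the durations, the size of the differences in the sex-biased lists rested largely on replicate 5. Their direction did not rest on it alone. Of the male-biased genes 10 were lower at an unadjusted p under 0.05 with it (2.88% of all genes) and 2 without it. Among the female-biased genes 6 were higher with it (2.81% of all genes) and none without it. None was called either way. With replicate 5 left out, 16 of the 18 male-biased genes were still lower and 15 of the 18 female-biased genes higher. The list medians were then -0.18 and 0.13, against 0.016 over all genes, and -0.67 and 0.52 with it. The mean over the male-biased list was 11.10 to 11.41 at 28 days, and 11.15, 10.44, 11.09, 10.88 and 8.66 at 56 days. That over the female-biased list was 5.79 to 6.00, and 5.96, 6.25, 6.00, 5.92 and 8.21. Hsd3b5 moved from -2.37 to -1.12 and Cyp2b9 from 1.66 to 0.16 without replicate 5. Bcl6, a repressor of female-biased genes in male liver, behaved otherwise, at -1.52 with replicate 5 and -1.57 without it, and Scara5 moved from -1.38 to -1.06. Hsd3b5 was also low in replicate 2 of 56 days, at 8.74.

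**Figure D5:**
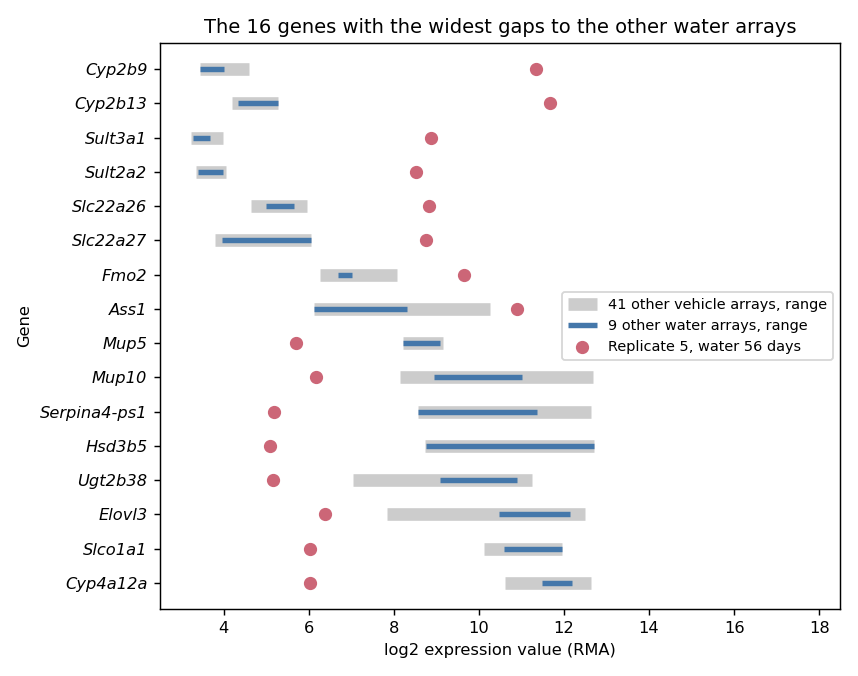
Log2 expression values of the 16 genes with the widest gap between replicate 5 of H2O_56d (points) and the other water arrays (thin bars, range of 9), beside the range of 41 other vehicle arrays (thick bars). Cyp2b9 and Cyp2b13 lie above 11 in replicate 5 and below 6 in every other vehicle array, and Cyp4a12a and Slco1a1 lie near 6 against more than 10.

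For scale, the same test was applied to the 7 vehicle groups of C57BL mice at 28 days, which differ in vehicle, route and cohort. Their 21 pairs gave from 21 to 13113 called probe sets, with a median of 3793, so the 9 of the water comparison were fewer than in any of these pairs. H2O_28d and the corn oil group differed at 22 probe sets and H2O_56d and corn oil at 44. The typical spread within groups was alike. The median SD of a probe set was 0.157 in H2O_28d and 0.174 in H2O_56d, within the range of 0.150 to 0.231 over the 19 groups. This does not hold for every called gene. The SD in H2O_28d and H2O_56d was 1.68 and 0.22 for Hspa1a and 0.76 and 0.08 for Dnajb1. For Hspa1b it was 0.93 and 0.67, and for Hsph1 0.59 and 0.32. For each of these genes H2O_28d had the highest SD of the 19 groups.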

How the data were processed

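Liver RNA of 10 water mice, within a series of 91 arrays, was labelled with the 3′ IVT Express kit. The authors deposited log2 values per probe set made with RMA, per the submitters' processing notes, with no version named there. RMA equalises the arrays, so a change in total RNA would not be seen. Probe sets were named from the platform table: 34945 had a single symbol, 932 several and 9160 none here. A means model of 19 groups over all 91 arrays, with 72 residual degrees of freedom, was fitted with limma 3.58.1 in R 4.3.3, with a mean-variance trend. Tests were two-sided, and p-values were adjusted by Benjamini-Hochberg over all 34945 probe sets. No 2 water arrays were duplicates, with a highest correlation of 0.994.

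Genes were named by rule: up to 12 called per direction without overlap, the 6 next by p, up to 4 members with the largest change in each list described, 24 fixed genes and genes with 1 mouse far from the rest. Dnajb1 was added as a called gene with overlap. The comparison and its 42 lists (649 of 735 distinct genes measured) were chosen with earlier results of these data known. The code was tested on simulated data. The number of arrays limits the precision.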

Additional observations from a re-analysis of the deposited data

Results flagged for a closer look

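For the genes named above, the 5 mice of each water group were searched for 1 mouse whose gap to the nearest other exceeded Dixon's 95% critical value. Chance marks about 1 in 20 groups. It marked 22 of 150 groups of values, 6 of 75 at 28 days and 16 of 75 at 56 days, and replicate 5 of 56 days was the mouse in 13 of these. Over all genes the shares were 6.06% and 6.45%. Genes named for a gap in replicate 5 add to its count.

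In replicate 5 of 56 days, female-biased genes were high: Cyp2b9 at 11.33, Cyp2b13 at 11.67, Sult3a1 at 8.87 and Slc22a26 at 8.83. The male-biased Elovl3 was low at 6.38, and so were Igf1 at 12.17 and the HSP90 gene Hsp90aa1 at 11.06. The pump gene Abcb1a at 8.64, Gpt at 11.98, the metallothionein gene Mt2 at 9.86 and the receptor gene Nr1i2 at 7.96 were high, as were Per1 at 9.29 and Tsc22d3 at 11.47, which both respond to glucocorticoids. Per1 read 6.99 to 7.33 in the other 4 mice of 56 days.

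In other mice of 56 days, the fetal liver gene Afp read 6.79 and Hspe1 12.46 in replicate 2, and Cyp7a1, the rate-limiting enzyme of bile acid synthesis, was low at 9.57 in replicate 4. At 28 days, replicate 4 was low in Abcb1a at 4.57 and in Cyp2b9 at 3.44. Replicate 3 was high in the acute phase gene Saa2 at 10.74 against 7.91 to 8.44. Replicate 1 was high in Hspe1 at 12.47 and low in Scd1 at 14.53 and in Scara5 at 4.41.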

How the results depend on the processing

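The 9 called probe sets became 0 with the 10 water arrays alone, and 0 with the replicate block in those arrays. They became 16 among probe sets with a mean of at least 6, and 14 without replicates 4 and 5 of H2O_28d together, a setting chosen after seeing the data. The count ran from 6 to 12 when 1 mouse was left out. Array weights in the water arrays gave 10, none of them among the 9. Replicate numbers showed no pairing of the mice within water or within phenobarbital. Same-numbered mice had correlations in their deviations of -0.222 to 0.003 in water and of -0.132 to 0.0999 in phenobarbital. Water mice were not compared with phenobarbital mice in this way. The phenobarbital count of 1 became 0 with the water and phenobarbital arrays alone and 0 with the replicate block in these, and ran from 0 to 2 with 1 mouse left out. The difference of the time differences stayed at 0, also with the replicate block, except for 1 in some omissions of a mouse (0 to 1). Of the 21 other settings Hspa1b was called in 17, Hsph1 in 17, Hspa8 in 16, Rwdd3 in 13 and Dnajb1 in 9, and Hspa1a in 15 of 20, with no change of sign. Differences near 0 changed sign. Scd1 was -0.0038 with arrays centred on their medians and -0.0064 with array weights, and Cyp7a1 was -0.084 with array weights. Without replicates 4 and 5 of H2O_28d, Arntl was 0.41, Cyp7a1 -0.053, Dbp -0.32, Egr1 0.59 and Fos 0.16. With 1 mouse left out, the ranges were -0.093 to 0.29 for Cyp7a1, -0.047 to 0.0304 for Scd1, -0.50 to 0.0397 for Lcn2, -0.21 to 0.028 for Mki67, -0.14 to 0.22 for Arntl, -0.071 to 0.51 for Afp, -0.0045 to 0.11 for Meg3, -0.093 to 0.24 for Nr1i2 and -0.19 to 0.33 for Nr1i3.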

Other observations

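A few genes stood at least 4-fold outside the other 9 water mice in a single mouse other than replicate 5 of 56 days, and were noted after their values were seen. In replicate 3 of 56 days 3 genes known for kidney expression were high: Kap, the kidney androgen-regulated protein gene, at 9.55 against 5.30 to 6.06, Umod, the uromodulin gene, at 6.34 against 3.34 to 3.76, and Cltrn, the collectrin gene, at 6.98 against 3.08 to 3.37. In replicate 2 of 56 days Esm1, an endothelial gene, read 7.95 against 3.71 to 4.79. In replicate 3 of 28 days both acute phase genes Saa1, at 12.55 against 8.92 to 10.28, and Saa2 were high. Cish, a target of growth hormone signalling, read 9.66, 8.96 and 9.70 in replicates 1, 3 and 4 of 56 days, 6.76 and 7.45 in replicates 2 and 5, and 6.36 to 7.94 at 28 days. The difference of 1.33 was not called.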
